A study of Arabidopsis thaliana with 18 samples.

Results

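The tiles described here are stretches of 200 bp on the chromosome arms of Arabidopsis thaliana that lay between genes and carried CHH methylation in wild-type plants. The nuclear genome was cut into 595735 tiles, counted from the first base of each chromosome. A tile was kept if it overlapped no gene or pseudogene span and no 500 bp stretch upstream of one, and if it lay outside fixed windows around the centromeres (chromosome 1 from 13 to 17 Mb, chromosome 2 from 1.5 to 6.5 Mb, chromosome 3 from 11.5 to 16 Mb, chromosome 4 from 1.5 to 6 Mb and chromosome 5 from 10 to 14.5 Mb). It also had to hold 10 or more CHH cytosines read at a depth of 4 or more in all 6 plants, with a pooled WT level of 10% or more. Of 78298 arm intergenic tiles with this coverage, 4333 (5.53%) met the level and are called members below, and a further 10593 arm intergenic tiles were too thinly covered to be placed. Members were selected on the CHH level of the WT plants, so CHH values in WT, and the differences of strs2 from them, are given as a description. CHG and CG levels took no part in the choice, but their differences also moved with it, as given below.

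DNA methylation had been measured by MethylC-seq (bisulfite sequencing of sheared DNA, in which unmethylated cytosines are read as thymine) in 3 strs2 and 3 WT plants, all in the Col-0 background, 3 weeks old, never exposed to excess light and sampled at true leaves 4 to 9. The strs2 plants carried the T-DNA insertion SALK_028850 in STRS2, which encodes a DEAD-box RNA helicase, so the mutant is represented by 1 insertion line. Transcript levels were taken from 3 naïve WT libraries of the same series (N-r1, N-r2 and N-r3, 14734517 to 28009401 counts each), because no transcripts of strs2 were measured, and the other 9 mRNA-seq libraries were not used here. In naïve leaves RBCS1A, the small subunit of Rubisco, stood at 13576, 16283 and 16924 CPM (counts scaled to the library total) and LHCB1.3, a light-harvesting protein, at 16831, 18370 and 25448 CPM, and the Rubisco activase RCA at 5482, 6305 and 2485 CPM, lowest in N-r3. The root gene PYK10 had 54, 3 and 5 counts, while the root gene CASP1 (2 to 4 counts) and the seed genes CRA1 (0 to 2 counts) and OLEO1 (0 counts in every library) were at or near 0.

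The insertion itself is not in the reference, so STRS2 (AT5G08620, chromosome 5, 2794388 to 2797760, TAIR10) could be checked only by where cytosines were listed. The longest stretch of STRS2 with no listed cytosine measured 46 bp in strs2-r1, 96 bp in strs2-r2 and 45 bp in strs2-r3, each time between 2794392 and 2794487. It measured 15 bp in WT-r1, 18 bp in WT-r2 and 13 bp in WT-r3 and lay at other places there. Within members, 588671 (WT-r2) to 927276 (WT-r3) CHH calls were available per plant, or 6.26 to 9.87 per cytosine. Chloroplast DNA, which carries no methylation and so measures calls that escaped conversion, read 0.434%, 0.498% and 0.492% CHH in strs2 and 0.448%, 0.586% and 0.515% in WT.

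Plants methylate cytosines in CG, CHG and CHH context, where H is A, C or T. CG methylation is copied after replication by MET1, and CHG methylation by CMT3, which is tied to a histone mark. CHH sites have no methylated partner to copy, so their methylation has to be laid down anew. On the arms this is mostly done by RNA-directed DNA methylation (RdDM), in which Pol IV transcripts are turned into small RNAs that guide DRM2 to sites transcribed by Pol V, often at short transposon remnants near genes. In the large transposons around centromeres CMT2 adds CHH methylation without small RNAs, and prefers cytosines followed by AA or TA. STRS2 has been linked to RdDM in Arabidopsis.

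The sequences of the members that the results below turn on are shown first, because the methylated cytosines lie in short, often AT-rich stretches. Each is the forward strand of the reference genome (RefSeq TAIR10.1, whose cytosine context matched nearly all listed cytosines), with coordinates on its chromosome. Capitals mark CHH cytosines that were read at depth 4 or more in all 6 plants and had a pooled WT level of 25% or more. A capital C lies on the printed strand, and a capital G stands for a cytosine on the opposite strand. The first 3 had less CHH methylation in strs2.
Chr3:6827601-6827800: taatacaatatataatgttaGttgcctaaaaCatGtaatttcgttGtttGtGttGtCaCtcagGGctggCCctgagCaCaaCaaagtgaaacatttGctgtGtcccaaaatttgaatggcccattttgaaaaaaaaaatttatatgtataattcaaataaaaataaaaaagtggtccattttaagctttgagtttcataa
Chr2:19263801-19264000: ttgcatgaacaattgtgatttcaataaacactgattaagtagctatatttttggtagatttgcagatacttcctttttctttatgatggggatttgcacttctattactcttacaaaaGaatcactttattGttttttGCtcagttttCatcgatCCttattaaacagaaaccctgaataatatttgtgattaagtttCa
Chr3:8547801-8548000: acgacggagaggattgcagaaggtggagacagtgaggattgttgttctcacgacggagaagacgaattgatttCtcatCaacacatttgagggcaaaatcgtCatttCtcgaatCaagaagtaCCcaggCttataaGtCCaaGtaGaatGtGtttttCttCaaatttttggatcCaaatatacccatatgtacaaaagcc
The next sequence had more CHH methylation in strs2.
Chr1:28397401-28397600: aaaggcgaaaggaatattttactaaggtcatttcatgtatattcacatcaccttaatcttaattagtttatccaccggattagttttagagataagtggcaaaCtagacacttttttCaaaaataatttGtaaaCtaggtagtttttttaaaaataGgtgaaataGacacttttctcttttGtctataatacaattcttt
The next pair are neighbours whose CHG methylation differed in opposite directions.
Chr1:21341401-21341600: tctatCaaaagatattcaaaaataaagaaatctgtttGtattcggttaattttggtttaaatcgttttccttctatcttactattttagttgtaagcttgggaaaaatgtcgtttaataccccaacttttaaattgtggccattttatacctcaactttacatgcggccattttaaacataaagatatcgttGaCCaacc
Chr1:21341601-21341800: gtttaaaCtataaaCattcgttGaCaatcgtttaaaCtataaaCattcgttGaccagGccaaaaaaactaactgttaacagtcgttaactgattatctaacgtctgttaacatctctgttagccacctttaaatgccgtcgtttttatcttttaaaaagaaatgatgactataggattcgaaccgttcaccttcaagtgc
The next pair had the largest CG difference in each direction.
Chr1:21681401-21681600: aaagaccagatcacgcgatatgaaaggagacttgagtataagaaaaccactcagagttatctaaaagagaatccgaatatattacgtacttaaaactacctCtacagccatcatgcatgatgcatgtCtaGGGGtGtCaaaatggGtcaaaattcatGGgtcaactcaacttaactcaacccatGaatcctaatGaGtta
Chr5:17030601-17030800: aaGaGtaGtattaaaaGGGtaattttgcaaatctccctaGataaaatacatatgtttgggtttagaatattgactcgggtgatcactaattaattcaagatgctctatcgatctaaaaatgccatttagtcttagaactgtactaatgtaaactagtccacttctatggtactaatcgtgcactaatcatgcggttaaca
The last had the highest WT CHH level of all members.
Chr2:16560401-16560600: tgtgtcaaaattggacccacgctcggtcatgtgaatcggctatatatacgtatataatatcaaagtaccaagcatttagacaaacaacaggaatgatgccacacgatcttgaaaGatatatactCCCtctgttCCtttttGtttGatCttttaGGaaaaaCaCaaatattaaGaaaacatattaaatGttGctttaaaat

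Members made up a small, scattered part of the arms. They fell into 3049 runs of adjacent tiles, of which 2208 held 1 tile, 798 held 2 to 4 tiles and 43 held 5 or more, so that 51.0% of members had no member next to them. The longest runs spanned 10 tiles (2000 bp), and 3 runs reached this length. Chromosome 1 held 1177 members, chromosome 2 held 722, chromosome 3 held 903, chromosome 4 held 592 and chromosome 5 held 939. The nearest gene or pseudogene lay at a median of 840 bp (quartiles 516 and 1388 bp), close to the 824 bp of the 73965 arm intergenic tiles with the same coverage and a WT CHH level under 10%. A pseudogene was the nearest feature for 17.5% of members and for 5.04% of those other tiles. Many Arabidopsis pseudogene entries are decayed transposon genes, but transposable elements were not annotated in the reference used here. Members were AT-rich, with a median of 29% G and C against 30.0% in the other arm tiles. Repeats soft-masked in the reference covered 45.1% of the bases of members, 54.8% of those of the intergenic tiles near centromeres with a WT CHH level of 10% or more, and 29.5% of those of the other arm tiles. Members were thus more often in repeats than the other arm tiles by this mask, a difference given here without a test.

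In CHH context members stood at 18.2% in strs2-r1, 21.1% in strs2-r2 and 18.5% in strs2-r3, against 20.1% in WT-r1, 20.9% in WT-r2 and 20.1% in WT-r3 (weighted levels, methylated calls over all calls). Values of 3 plants below run from r1 to r3. The mean was 19.3% ± 1.57 in strs2 and 20.4% ± 0.434 in WT (SD, n = 3 each), which differ by -1.09 percentage points, strs2 minus WT. The plants overlapped, because strs2-r1 and strs2-r3 lay below every WT plant, while strs2-r2 lay above every WT plant. Without strs2-r2 the difference was -1.99 points, without strs2-r1 it was -0.577 and without strs2-r3 it was -0.711.

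CHG and CG levels of members, which the choice did not use directly, were closer still. CHG methylation stood at 46.3%, 48.6% and 45.8% in strs2 and at 47.3%, 47.6% and 46.6% in WT, a difference of -0.244 points. CG methylation stood at 80.5%, 80.1% and 79.9% in strs2 and at 81.2%, 81.3% and 78.8% in WT, a difference of -0.226 points. In both contexts the plants of the genotypes overlapped and the difference was smaller than the SD of either genotype's plants. When the strs2 plants chose the tiles, the differences were 0.808 points in CHG and 0.692 in CG, so they too depended on the choice. For comparison, the intergenic tiles near centromeres with WT CHH of 10% or more (4817 tiles) had 12.5%, 14.2% and 12.7% CHH in strs2 and 14.2%, 14.1% and 13% in WT. The other arm intergenic tiles had 0.773%, 0.876% and 0.836% CHH in strs2 and 0.797%, 0.921% and 0.805% in WT, somewhat above the chloroplast level. The strs2-r2 plant had the highest CHH level of the 3 strs2 plants in all 3 sets of tiles.

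**Figure D1:**
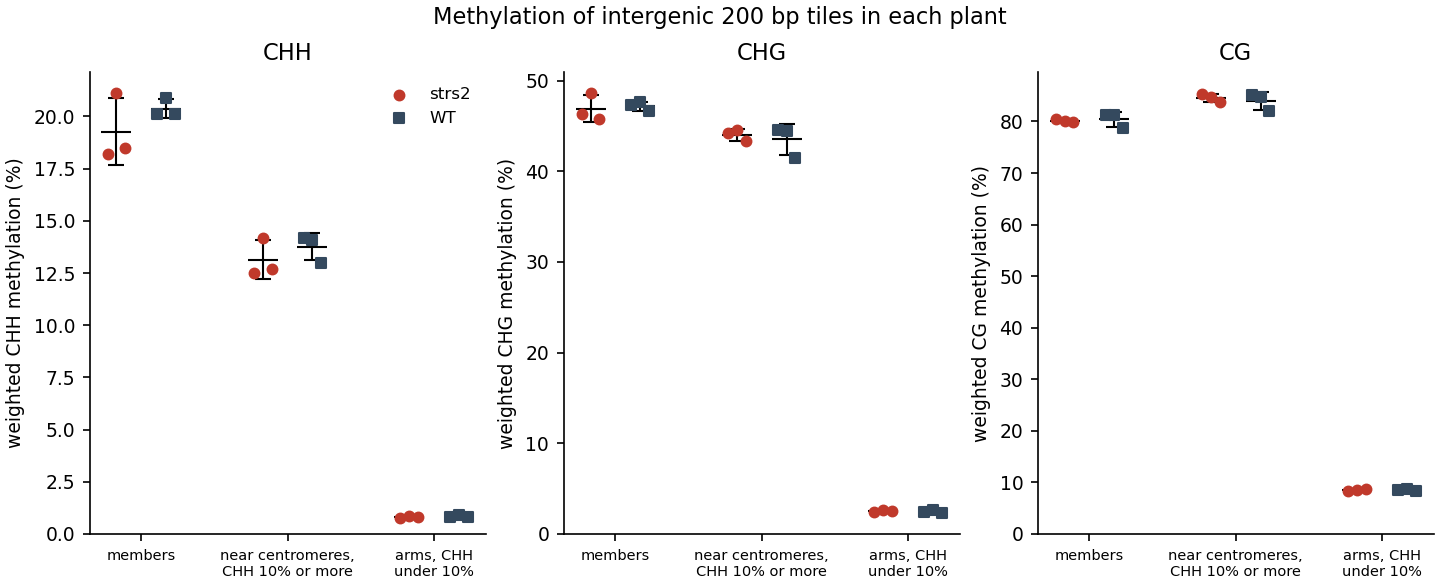
Weighted methylation (vertical axes, %) in CHH, CHG and CG context for members, for CHH-methylated intergenic tiles near centromeres and for the other arm intergenic tiles, with strs2 plants as circles and WT plants as squares. Bars give the mean and SD of 3 plants, and in members the CHH level of strs2-r2 (21.1%) lies above the WT plants (20.1% to 20.9%) while strs2-r1 and strs2-r3 (18.2% and 18.5%) lie below them.

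How far the CHH difference depended on which plants chose the tiles was examined by choosing them in other ways. When the level pooled over all 6 plants was used, 4290 tiles passed, with 18.7%, 21.6% and 18.9% CHH in strs2 and 20.1%, 20.8% and 20.0% in WT, a difference of -0.535 points. When the pooled strs2 plants were used, 4231 tiles passed, with 18.9%, 21.9% and 19.1% in strs2 and 19.8%, 20.4% and 19.7% in WT, a difference of 0.00615 points. Tiles were also chosen on 2 WT plants at a time, and the plant left out of the choice was then set beside strs2. With WT-r1 left out, the strs2 mean was 19.1% and WT-r1 stood at 19.6%. With WT-r2 left out, the strs2 mean was 19.3% and WT-r2 stood at 20.5%. With WT-r3 left out, the strs2 mean was 19.1% and WT-r3 stood at 19.4%. The difference was thus -0.476, -1.14 and -0.305 points, smaller than -1.09 with WT-r1 or WT-r3 left out and slightly larger with WT-r2 left out, and averaged -0.639 points.

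Single tiles were then read from a test fitted to all nuclear tiles. In each tile the methylated and unmethylated calls of the 6 plants were compared with a quasi-binomial logistic model, with the dispersion moderated across tiles, and the Benjamini-Hochberg adjustment ran over all tiles tested in that context. An adjusted p below 0.05 was called. In CHH context all 4333 members could be tested: 1 was called higher in strs2, where the background over all 219757 tiles tested was 0.0692%, and 32 were called lower, where the background was 0.0596%. Nothing is read from these shares, because the rule requires methylation in WT and so admits tiles that lost it and turns away tiles that gained it. Among the tiles chosen on all 6 plants 12 were called higher and 18 lower, and among those chosen on the strs2 plants 27 were called higher and 6 lower. The split by direction therefore turned with the choice of plants.

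**Figure D2:**
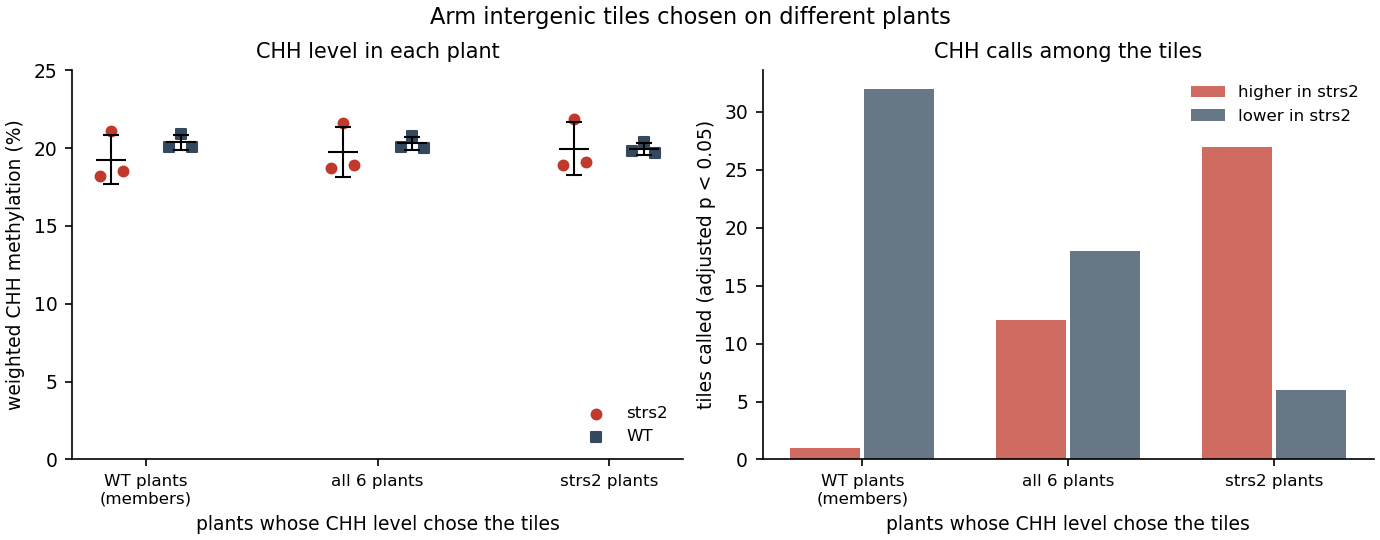
Left, weighted CHH methylation (%) of arm intergenic tiles chosen on the WT plants, on all 6 plants or on the strs2 plants, with strs2 plants as circles, WT plants as squares, and bars for the mean and SD of 3 plants. Right, the number of those tiles called higher (1, 12 and 27) or lower (32, 18 and 6) in strs2 at an adjusted p below 0.05.

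In CHG context 1634 members held enough cytosines and calls to be tested. Of these, 1 was called higher in strs2, against a background of 0.521% of the 59100 tiles tested, and 9 were called lower, against 0.284%. As shares of the members tested these were 0.0612% and 0.551%. In CG context 1947 members were tested. Of these, 25 (1.28%) were called higher, against a background of 10.8% of the 129027 tiles tested, and 39 (2.00%) were called lower, against 9.79%. The arm intergenic tiles with a WT CHH level under 10% had 432 CG calls higher and 535 lower among 5677 tested, or 17% in all. The CHH-methylated tiles near centromeres had 24 higher and 13 lower among 2359, or 1.57%. The share called was thus lower among tested members than over all tiles tested, but the tiles tested were not alike. Of tiles with 4 or more CG cytosines, 1947 of 2001 members were tested, but only 5677 of 42815 other arm tiles. Those other tiles had a median WT CG level of 0.427%. At such a level the required 10 methylated calls are reached mainly where some plants are methylated, which favours tiles that vary. Nothing particular to members is therefore read from the lower share. The direction of the CHG and CG calls also moved with the choice of tiles. In CHG, 5 were higher and 4 lower among tiles chosen on all 6 plants, and 6 were higher and 1 lower among those chosen on the strs2 plants. At a minimum difference of 50 points, 0 of the 25 CG calls higher and 10 of the 39 lower were left. A gain of that size needs a WT level of 50% or less. The lower quartile of WT CG over members with 4 or more CG cytosines was 78.6%, so nothing is read from this split. In CG the counts were 30 higher and 31 lower among tiles chosen on all 6 plants, and 33 higher and 23 lower among those chosen on the strs2 plants. Without strs2-r2 the CG calls came to 41 in place of 64, and the CHG calls to 6 in place of 10.

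Calls in the 3 contexts met in the same tile only in part, and 3 of the 85 members called in any context were called in all 3. Of the 32 members called lower in CHH, 17 could be tested in CG, and 13 of these were called lower there and 0 higher. Of the same 32, 11 could be tested in CHG, and 7 of these were called lower and 0 higher. The rule admits tiles that lost methylation, and the same shares over all tiles called in CHH are not given. Nothing particular to members is therefore read from these counts. Their mean CHH level ran between 0.152% and 18.5% in strs2 (median 2.64%) and between 9.73% and 43.9% in WT (median 16.5%). In 15 of the 32 the strs2 mean was under 2%. In 10 of the 29 with 2 or more CG cytosines, strs2 had under 10% CG methylation where WT had 40% or more, whereas in 7 others CG methylation was 75% or more in both genotypes. Loss of CHH methylation at these members was thus found both with and without loss of CG methylation. The 25 members called higher in CG were all left uncalled in CHH, with a median CHH difference of 0.0785 points, and 26 of the 39 called lower in CG were also left uncalled in CHH, with a median CHH difference of -1.69 points.

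The tile with the largest CHH and CHG difference was Chr3:6827601-6827800, 186 bp downstream of PRP40B (AT3G19670), which encodes a pre-mRNA processing protein. CHH methylation there stood at 0.0%, 0.0% and 0.467% in strs2, against 31.9%, 48.1% and 51.9% in WT. The zeros are 0 of 182 calls and 0 of 175 calls, which allow levels of up to 1.65% and 1.71% from counting error alone. Of its 25 CHH cytosines, 0 reached 25% in strs2 and 18 did in WT, the capitals of its sequence above. CHG methylation over 5 cytosines stood at 4.88%, 0.0% and 11.1% in strs2, against 71.4%, 88.9% and 92.7% in WT, a difference of -79.0 points (adjusted p = 2.46e-12). Its 2 CG cytosines, too few to test, read 0.0%, 0.0% and 5.88% in strs2 and 68.8%, 85.7% and 94.1% in WT. The CG zeros are 0 of 16 and 0 of 14 calls, allowing up to 18.8% and 21.4%, and the CHG zero of strs2-r2 is 0 of 31 calls, allowing up to 9.68%. The genotypes did not overlap in any of the 3 contexts, which was required in CHH and CHG for the tile to be named. The highest strs2 value was the 11.1% CHG of strs2-r3. The tile before it shared the pattern at a lower level, with 1.03%, 0.0% and 0.851% CHH in strs2 and 5.26%, 10.8% and 6.10% in WT. The tile after it, inside the excluded gene stretch, read 0.0% in all 6 plants, but over only 5 CHH cytosines, too few to test.

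A similar loss was seen at Chr2:19263801-19264000, 573 bp downstream of PAP14 (AT2G46880), a purple acid phosphatase. CHH methylation stood at 0.513%, 0.0% and 1.40% in strs2, against 20.2%, 34.5% and 29.9% in WT. CHG methylation over 7 cytosines stood at 0.0%, 3.51% and 0.0% in strs2, against 51.1%, 52.6% and 56.8% in WT, a difference of -52.3 points (adjusted p = 1.68e-11). The zeros of strs2-r1 and strs2-r3 in CHG are 0 of 58 and 0 of 44 calls, allowing up to 5.17% and 6.82%. In both contexts every strs2 plant lay below every WT plant, as was required for the tile to be named. In the tile after it CHH methylation overlapped between the genotypes, while CG methylation read 0.0%, 10.0% and 0.0% in strs2 and 72.7%, 66.7% and 63.0% in WT over 2 cytosines.

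The other CHH tile named by the rule, Chr3:8547801-8548000, lay 2037 bp upstream of XTH16 (AT3G23730), a xyloglucan-modifying enzyme of the cell wall, at the end of a run of 4 members. CHH methylation stood at 11%, 10.4% and 7.19% in strs2, against 41.0%, 62.4% and 28.4% in WT, so the loss was partial and the WT plants themselves ranged widely. CG methylation over 7 cytosines stood at 13%, 10.0% and 32.1% in strs2, against 62.2%, 58.3% and 70.5% in WT, a difference of -45.3 points (adjusted p = 3.54e-05). The first tile of the same run, 600 bp away, kept its CHH methylation, with 37.0%, 35.8% and 41.0% in strs2 and 38.8%, 34.7% and 42.7% in WT. Between them, the second tile of the run had 1.23%, 6.61% and 14% CHH in strs2 and 14.8%, 13.1% and 18.0% in WT, and its 5 CG cytosines stood at 42.9%, 20.5% and 61.5% in strs2, against 83.3%, 68.0% and 82.4% in WT (adjusted p = 0.0052). The CHH levels of the genotypes thus overlapped in the first 2 tiles of the run and lay apart at its other end. In the last tile this was required for it to be named.

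Only 1 member was called higher in CHH, Chr1:28397401-28397600, 724 bp upstream of AT1G75620 and first in a run of 5 members. CHH methylation stood at 35.4%, 20.4% and 31.8% in strs2, against 10.6%, 14.4% and 15.4% in WT. Of its 27 CHH cytosines, 14 reached 25% in strs2 and 7 did in WT. This call was lost when any of strs2-r1, strs2-r3 or WT-r1 was left out, under limma on log ratios and with the replicate number as a block. The other 4 tiles of the run overlapped between the genotypes.

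**Figure D3:**
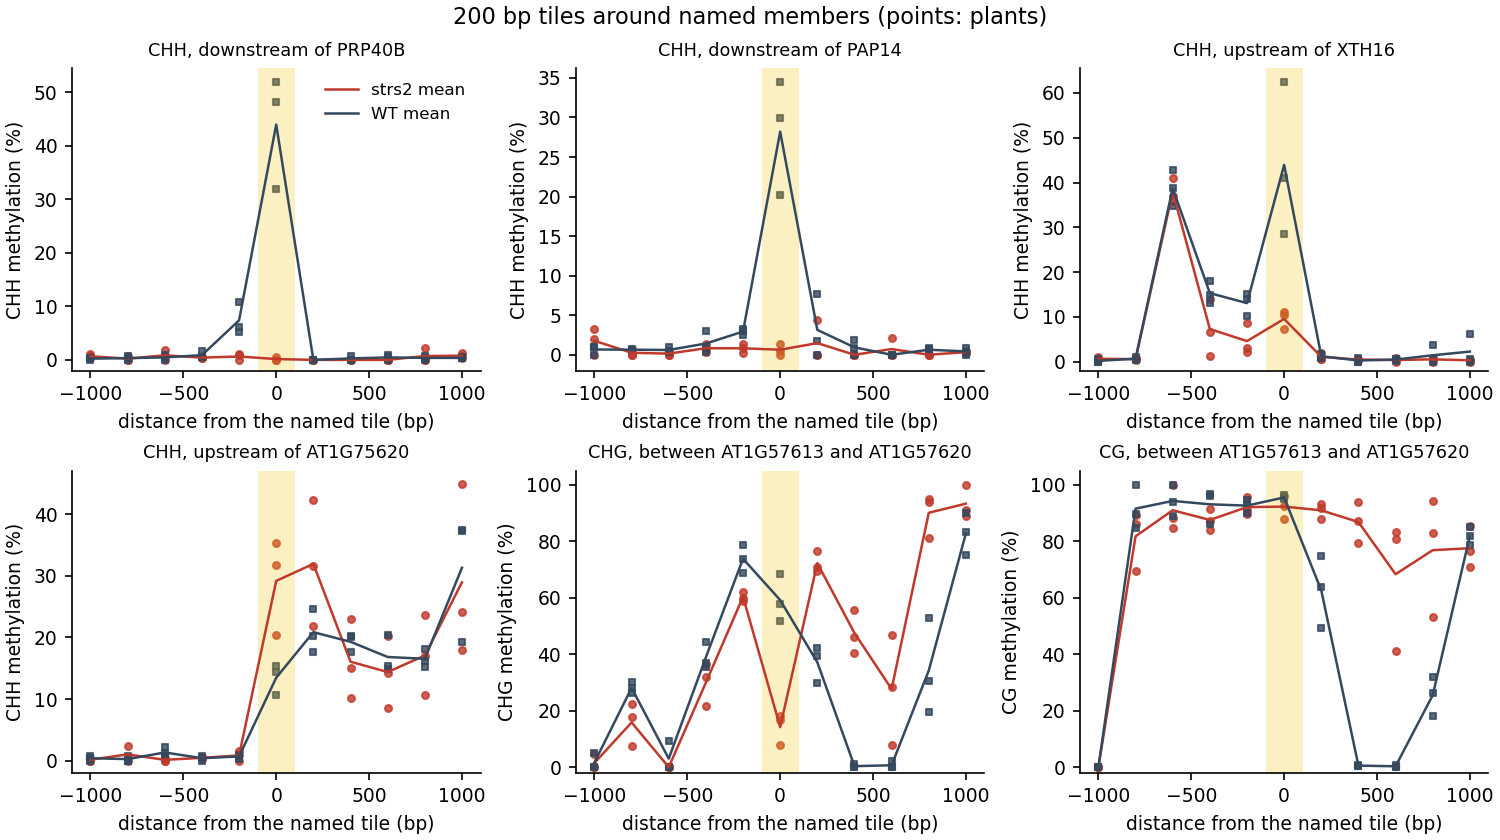
Methylation (vertical axes, %) of successive 200 bp tiles by distance in bp from 5 named members (shaded; the last 2 panels show CHG and CG around the same member), with strs2 plants as circles, WT plants as squares and lines for the means. CHH methylation at the members downstream of PRP40B and PAP14 is near 0 in strs2, and CHG and CG methylation between AT1G57613 and AT1G57620 is present in strs2 at 400 and 600 bp, where WT is near 0, and is high in both genotypes at 1000 bp.

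CHG methylation differed in opposite directions in a pair of adjacent members between AT1G57613 and AT1G57620, both of which are protein-coding. In Chr1:21341401-21341600, CHG methylation over 4 cytosines stood at 7.69%, 16.7% and 18.2% in strs2, against 57.6%, 68.2% and 51.6% in WT, a difference of -44.9 points (adjusted p = 0.000105). Its CG methylation did not follow, with 96.1%, 88.0% and 92.6% in strs2 and 94.9%, 95.1% and 96.4% in WT (adjusted p = 0.488). In the next tile, Chr1:21341601-21341800, CHG methylation over 7 cytosines stood at 69.3%, 70.8% and 76.5% in strs2, against 39.5%, 29.7% and 42.2% in WT, a difference of 35.1 points (adjusted p = 4.91e-05). CG methylation rose there too, with 88.0%, 91.6% and 93.1% in strs2, against 74.7%, 49.4% and 63.6% in WT (adjusted p = 0.000192). The tile beyond it was no member, being nearly unmethylated in WT: its 15 CG cytosines stood at 79.3%, 93.8% and 87.2% in strs2, against 0.641%, 0.562% and 0.476% in WT, and its 9 CHG cytosines at 46.2%, 55.7% and 40.5% in strs2, against 1.09%, 0.0% and 0.0% in WT. The tile after that, 600 bp from the first of the pair, read 41.0%, 83.3% and 80.6% CG in strs2, against 0.0%, 0.0% and 0.935% in WT, and at 1000 bp the genotypes overlapped again, with 85.2%, 76.5% and 70.8% in strs2 and 78.8%, 85.0% and 81.8% in WT. A gap between methylated stretches in WT was thus methylated in all 3 strs2 plants. CHH methylation of the tile next to the pair was 5.93%, 11.3% and 8.08% in strs2 and 0.494%, 0.234% and 0.188% in WT.

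Of the members named for a CG loss, Chr1:21681401-21681600 had the largest difference. It lay 882 bp downstream of AAP1 (AT1G58360), an amino acid permease. CG methylation over 8 cytosines stood at 0.0%, 3.23% and 5.71% in strs2, against 97.2%, 91.1% and 92.5% in WT, a difference of -90.6 points (adjusted p = 6.98e-09). The zero is 0 of 50 calls, which allows up to 6.0%. CHG methylation over 5 cytosines stood at 2.86%, 2.44% and 5.26% in strs2, against 43.2%, 42.1% and 40% in WT (adjusted p = 1.26e-06). CHH methylation remained in part, at 9.22%, 7.98% and 12.6% in strs2, against 18.7%, 19.5% and 18.0% in WT. In this tile CG and CHG methylation were near 0 in strs2 while some CHH methylation was kept, and 8 of its 43 CHH cytosines still reached 25% in strs2, against 14 in WT.

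The other CG losses named by the rule were at Chr4:11145401-11145600 and Chr1:17247401-17247600. In the first, 1804 bp upstream of AT4G20810, CG methylation over 5 cytosines stood at 0.0%, 0.0% and 3.57% in strs2, against 89.2%, 95.8% and 86.0% in WT (adjusted p = 5.72e-08), and CHH methylation at 0.0%, 0.455% and 0.0% in strs2, against 7.80%, 10.2% and 12.2% in WT. In the second, 259 bp downstream of the pseudogene AT1G46552, CG methylation over 4 cytosines stood at 0.0%, 0.0% and 8.0% in strs2, against 70.8%, 65.2% and 72.5% in WT (adjusted p = 3.26e-06), and CHH methylation at 0.0%, 1.12% and 6.08% in strs2, against 32.1%, 18.2% and 22.2% in WT. The CG zeros allow up to 7.89% and 6.67% in the first tile (0 of 38 and 45 calls) and up to 13.6% and 11.5% in the second (0 of 22 and 26 calls). Both tiles had little CG and CHH methylation in any strs2 plant.

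The gains of CG methylation named by the rule were smaller, and their CHH levels overlapped between the genotypes. Members with 4 or more CG cytosines had a median WT CG level of 87.1%. That left less room for a gain than for a loss, so nothing is read from the smaller size. In Chr5:17030601-17030800, 224 bp downstream of the cytochrome P450 gene CYP71A16 (AT5G42590), CG methylation over 6 cytosines stood at 68.0%, 67.4% and 61.4% in strs2, against 12.2%, 27.9% and 19.3% in WT, a difference of 45.8 points (adjusted p = 1.76e-05). CHH methylation overlapped, at 10.6%, 6.20% and 9.84% in strs2 and 8.42%, 8.41% and 13.5% in WT. In Chr3:11054001-11054200, 1245 bp upstream of AT3G29075, CG methylation stood at 92.0%, 93.1% and 93.1% in strs2, against 43.3%, 58.3% and 48.6% in WT (adjusted p = 0.000107). In Chr3:760401-760600, 404 bp downstream of AT3G03270, it stood at 66.7%, 61.0% and 60.6% in strs2, against 24.0%, 27.0% and 20.3% in WT (adjusted p = 3.50e-05). In all 3 tiles every strs2 plant lay above every WT plant in CG, as was required for a tile to be named. Beside Chr3:11054001-11054200, the tile before it, no member, also had more methylation in strs2 in CHH, with 12.0%, 4.90% and 5.84% in strs2, against 0.348%, 0.481% and 0.578% in WT, and in CG, with 77.6%, 59.7% and 58.1% in strs2, against 9.09%, 1.89% and 4.44% in WT (adjusted p = 4.02e-07). Among the 25 members called higher in CG, Chr3:16682401-16682600, named after its values were seen, had CHH levels that did not overlap, with 20.9%, 15.6% and 11.5% in strs2 and 11%, 9.52% and 9.40% in WT, and was not called in CHH.

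The members with the highest CHH level in WT, in contrast, were methylated in both genotypes. In Chr2:16560401-16560600, 1188 bp downstream of AT2G39710, CHH methylation stood at 61.6%, 82.4% and 73.8% in strs2 and at 82.8%, 78.2% and 80.5% in WT, and 16 of its 17 CHH cytosines reached 25% in strs2 as in WT. In Chr4:16729201-16729400, 670 bp upstream of AT4G35150, it stood at 66.7%, 78.7% and 60.9% in strs2 and at 74.4%, 63.0% and 76.3% in WT. In Chr3:5929401-5929600, 1418 bp upstream of the long non-coding RNA gene AT3G03465, it stood at 54.1%, 64.6% and 70.7% in strs2 and at 70.1%, 70.1% and 74.7% in WT. In each of them the plants of the genotypes overlapped. The first of the longest runs, at 22163201 to 22165200 on chromosome 1 and downstream of AT1G60095, had 20.4%, 20.2% and 23.4% CHH in strs2 and 20.0%, 21.6% and 19.6% in WT, and 67.8%, 60.3% and 60.4% CHG in strs2 and 62.5%, 60.2% and 59.4% in WT.

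At the threshold the choice was close. The members just inside it were Chr1:432801-433000, 31 bp downstream of the pseudogene AT1G02228, and Chr1:5098801-5099000, 531 bp upstream of RDR1 (AT1G14790), an RNA-dependent RNA polymerase. Both had a pooled WT CHH level of 10.0%, with 7.02% and 6.68% in pooled strs2. The tiles just outside were Chr2:10133601-10133800 upstream of GGPS2 (AT2G23800), at 7.16% in strs2 and 9.99% in WT, and Chr3:6054001-6054200 upstream of AT3G17710, at 8.54% in strs2 and 9.98% in WT.

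Tile by tile, CHH levels of members varied far more than their average. Over members the pooled strs2 level had quartiles of 12.2% and 24.8% and a maximum of 75.3%, and the pooled WT level had quartiles of 13.2% and 25.1% and a maximum of 80.8%. The strs2 mean was below the WT mean in 2626 members (60.6%) and above it in 1707, and the tile differences had quartiles of -4.20 and 1.76 points. Against the WT mean, 64.6% of members were lower in strs2-r1, 47.1% in strs2-r2 and 64.2% in strs2-r3, so an excess of lower tiles was seen in 2 of the 3 strs2 plants. The choice of members on the WT level favours such an excess, and nothing more is read from it. The SD between plants in a tile had a median of 4.41 points in strs2 and 4.46 points in WT. Correlations of CHH level between plants over the 4333 members, which share the coverage and sequence of each tile, were 0.734 to 0.742 among strs2 plants, 0.696 to 0.748 between genotypes and 0.705 to 0.730 among WT plants.

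The mean CHH level was lower in strs2 in every kind of member examined, by differing amounts, while the CHG and CG differences took either sign. Every kind is a part of the tiles chosen on the WT CHH level. That choice favours a lower strs2 mean in each, so nothing is read from their agreement. By run length, the CHH difference was -1.43 points in runs of 1 tile, -0.756 in runs of 2 to 4 and -0.763 in runs of 5 or more. By distance to the nearest gene it was -1.19 points under 500 bp (1016 members), -1.08 between 500 and 2000 bp (2825) and -0.969 beyond 2000 bp (492). By chromosome it lay between -1.59 points on chromosome 2 and -0.879 on chromosome 5. By GC content it was -1.19 points below 30%, -1.08 between 30% and 40% and -0.636 at 40% or more. In each of these groups strs2-r2 stood above strs2-r1 and strs2-r3, and it lay above the lowest WT plant, so the genotypes overlapped. By WT level it was -0.415 points for members at 10% to 15%, -1.04 at 15% to 20%, -1.05 at 20% to 30% and -2.96 at 30% or more, where strs2 plants stood at 34.5%, 39.1% and 35.2% and WT plants at 38.8%, 40.3% and 38.7%. These levels were set by the same WT plants, so a larger deficit at a higher WT level is built into the grouping and nothing is read from it. Cytosines on the forward strand (18.4%, 21.2% and 18.5% in strs2, 20.3%, 21.0% and 20.1% in WT) and on the reverse strand (18.0%, 20.9% and 18.5% in strs2, 20.0%, 20.7% and 20.0% in WT) were alike.

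The bases after the cytosine set members apart from the tiles near centromeres. In members every trinucleotide was methylated, from 13.4% ± 1.13 in strs2 and 14.3% ± 0.246 in WT at CCT to 26.1% ± 2.04 in strs2 and 27.5% ± 0.825 in WT at CTA. Near centromeres CTA stood at 24.9% in strs2 and 25.8% in WT and CAA at 24.1% in strs2 and 25% in WT, much as in members, but CCT stood at 3.71% in strs2 and 4.09% in WT and CAT at 7.20% in strs2 and 7.78% in WT, where members had 15.3% in strs2 and 16.3% in WT at CAT. CTA and CAA are the sites that CMT2 prefers, as background. The strs2 mean was 0.935 (CTT) to 0.952 (CAA and CTC) of the WT mean in members, so no trinucleotide stood out. Single CHH cytosines were uneven: of the 93984 in members, 16.5% read 0 in WT at a median of 24 calls a cytosine, 38.3% were under 10% and 10.3% reached 50% or more.

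Where CG and CHG could both be read, most members were methylated in every context. Of the 1148 members of 4333 with 4 or more cytosines in both CG and CHG, 1098 (95.6%) had 10% or more in both contexts in strs2, and 1111 (96.8%) did in WT. CG and CHG were both under 10% in 11 members in strs2 and in 6 in WT. Among tiles with 4 or more such cytosines, the median WT level was 87.1% in CG (2001 members) and 47.5% in CHG (1653 members), against 0.427% and 0.457% in the other arm intergenic tiles.

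Methylation fell off quickly beside members. In the first tile outside a run CHH methylation averaged 5.51% ± 0.473 in strs2 and 5.53% ± 0.262 in WT (5755 tiles, n = 3 plants each), and 1000 bp away it averaged 2.06% ± 0.128 in strs2 and 2.05% ± 0.127 in WT. CG methylation averaged 49.2% in strs2 and 48.5% in WT in the first tile outside, and 15.9% in strs2 and 15.7% in WT at 1000 bp. These outer tiles include gene and upstream stretches and were not chosen by level, apart from the intergenic ones, which had to be below the threshold or thinly covered. Outside members the CHH difference lay between -0.0257 and 0.0625 points at every distance up to 1000 bp.

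**Figure D4:**
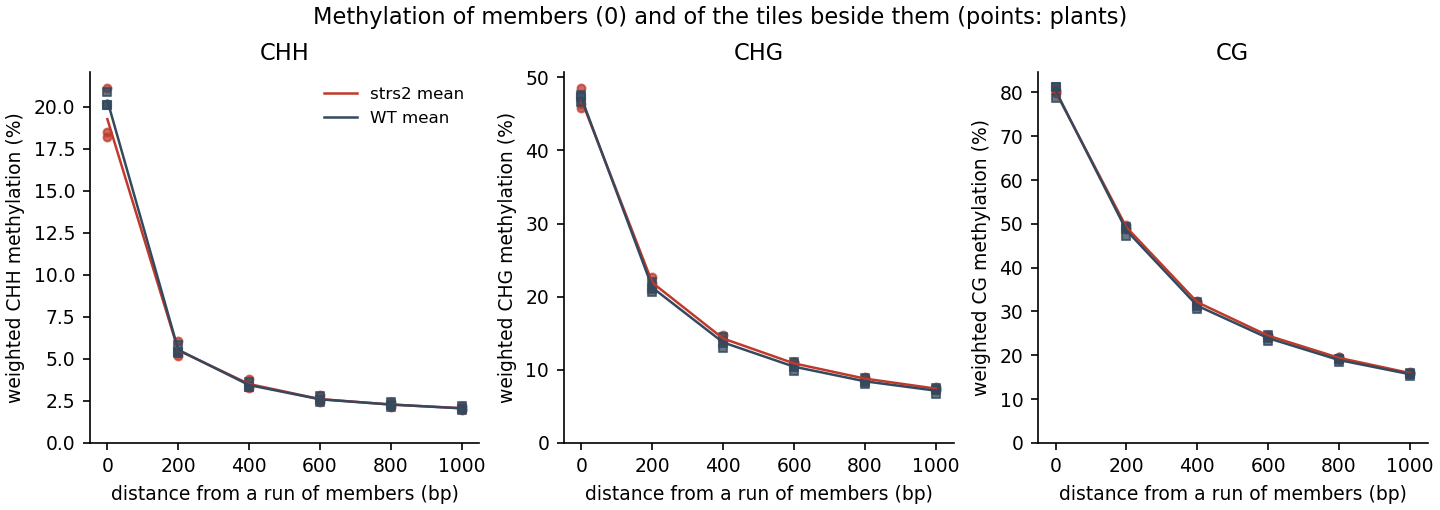
Weighted methylation (vertical axes, %) in CHH, CHG and CG context of members (distance 0) and of the tiles 200 to 1000 bp outside each run of members, with strs2 plants as circles, WT plants as squares and lines for the means. CHH methylation drops to 5.51% in strs2 and 5.53% in WT in the first tile outside.

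Transcript levels of genes near members are given for naïve WT leaves as a description without a test. Within 2000 bp, members had 2370 distinct nearest genes, of which 1991 were in the count tables, with a median of 0.489, 0.404 and 0.331 CPM per kb of transcript in N-r1, N-r2 and N-r3. The 13996 counted genes nearest to the other arm intergenic tiles, many of which are the same genes, had medians of 0.727, 0.656 and 0.440 CPM per kb, higher in each library. The 322 counted genes that were nearest to members alone had medians of 0.568, 0.471 and 0.444 CPM per kb, the last of which is no lower than that of the other genes. No counts were listed for 39.1%, 37.3% and 36.3% of genes nearest to members, and for 36.4%, 34.4% and 34.3% of genes nearest to the other tiles. N-r3, which the study left out of its expression tests, gave the lowest medians in all 3 groups. Beside the named tiles, AAP1 stood at 84.7, 98.3 and 164 CPM in N-r1, N-r2 and N-r3. PRP40B stood at 28.4, 28.1 and 2.36 CPM and XTH16 at 7.87, 8.43 and 2.44 CPM, both lowest in N-r3. PAP14, CYP71A16, AT1G57613 and AT4G20810 had 0 counts in all 3 libraries. What these genes did in strs2 was not measured.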

How the data were processed

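MethylC-seq of 3 strs2 and 3 WT plants and mRNA-seq counts of 3 naïve WT libraries were used. Per the submitters' processing notes, reads were trimmed (Trim Galore 0.3.7, cutadapt 1.9) and aligned to TAIR10 with Bismark 0.14.5 and Bowtie2 2.2.9, and the authors deposited the counts of methylated and unmethylated calls per cytosine. The deposited mRNA-seq values are counts per Araport11 locus (Subread 1.6.2, featureCounts), which were scaled here to CPM over the nuclear loci.

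The members, strata and gene lists were chosen with earlier results of these data known. Calls were summed per tile over cytosines of depth 4 or more in all 6 plants. Gene and pseudogene spans came from the RefSeq annotation of TAIR10.1. Tiles with 10 or more CHH cytosines, or 4 or more CG or CHG cytosines, and with 10 or more methylated and 10 or more unmethylated calls over the 6 plants were fitted with a quasi-binomial logistic model on genotype in Python 3.11.15 (numpy 2.4.6, pandas 2.3.3). Dispersions were moderated with limma 3.58.1 (R 4.3.3), with a floor of 1, and F-test p-values were adjusted by the Benjamini-Hochberg method over all tiles tested. The procedure was tested on simulated data. The study used a model per cytosine, so single calls can differ. Depth of 6.26 to 9.87 CHH calls per cytosine in members limits single tiles to large differences. With 3 plants a genotype, p-values rest more on the dispersion shared across tiles than on the spread within a tile. The shared part carried 124 degrees of freedom in CHH, 67.7 in CHG and 12.4 in CG. Limits given for counts of 0 are what 3 calls would give, and cover counting error only.

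The text names, per context and direction, the 3 called members with the largest difference among those whose genotypes did not overlap, the 3 with the highest WT CHH level, the first of the longest runs, and 2 tiles on either side of the threshold. Alternatives were another depth, level, number of cytosines, annotation, tile grid and choice of plants, other tests and filters, a replicate block, and leaving out each plant. Transposable elements were not analysed here.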

Additional observations from a re-analysis of the deposited data

How the results depend on the processing

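Members numbered 26 at a depth of 8 in all plants, 1764 at a WT level of 20% or more, 2233 with 20 or more CHH cytosines and 8378 when the Araport11 loci of the count tables took the place of the reference genes and pseudogenes, and between 4231 and 4388 under the other choices. At a depth of 8 the level difference was 3.67 points in CHG and -1.94 in CG, from 26 tiles, and 0 members were called in CHH (26 tested, 2 at an unadjusted p under 0.05), 0 in CHG and 0 in CG (2 tested in each, 0 at an unadjusted p under 0.05) by the quasi-binomial model. In the other choices the level differences moved by less than 1 SD of the plants. In CHH that SD was 1.15 points, more than the whole difference of -1.09, which went to 0.00615 when the strs2 plants chose the tiles. The CHG and CG differences, which lay near 0, took the other sign when all 6 plants (0.339 and 0.273 points) or the strs2 plants (0.808 and 0.692 points) chose the tiles. They did so too with the Araport11 loci (0.71 and 0.214 points) and, in CHG alone, when WT plants left out of the choice were compared (0.13 points). Leaving out each plant gave -1.99 to -0.577 points in CHH, -1.11 to 0.32 in CHG and -1.05 to 0.208 in CG.

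At a WT level of 20% or more, 14 members were called in CHH, 3 in CHG and 25 in CG. With Araport11 loci 16 were called in CHG and 98 in CG. Limma on log ratios called 15 in CHH. With a minimum difference of 50 points 10 remained in CG, of which 0 were higher and 10 lower in strs2. The WT CG level of most members left no room for such a gain, so nothing is read from the split. Leaving out each plant gave 27 to 42 calls in CHH, 6 to 10 in CHG and 41 to 57 in CG, and 18 of the 33 CHH calls, 5 of the 10 CHG calls and 33 of the 64 CG calls were made in every such fit. With the replicate number as a block, 14 members were called in CHH, 5 in CHG and 0 in CG by the quasi-binomial model, where 66 of 1947 had an unadjusted p under 0.05 and the named CG tiles had adjusted p of 0.0866 to 0.0894. Over all tiles tested the block fit called 110 of 219757 in CHH, 176 of 59100 in CHG and 0 of 129027 in CG. The 0 in CG was thus not particular to members. The shared dispersion carried 1.39 degrees of freedom in CG in that fit, against 12.4 without the block. Without the block, limma on log ratios called 65 in CG. In CHH, plants of the same number did not deviate together (correlations of -0.0308 to 0.00356 over members), and the number was not taken as a pairing. These correlations were not computed in CHG or CG, so whether plants of the same number deviate together there was not tested. The direction of the called differences in named tiles could not change in these fits, so nothing is read from it. The other tests, the fit without the minimum of calls and the block use the same plant levels. Tiles were named only where the genotypes did not overlap, so leaving out any 1 plant cannot turn the sign. Other named tiles were not refitted. The cause of the changes in counts of calls and in level differences was not tested, beyond the fewer tiles or plants used.

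At 6.26 to 9.87 calls per CHH cytosine a stricter depth removes nearly all members.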

Other observations

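The 85 members called in any context were spread over the chromosomes, with 26 on chromosome 1, 16 on chromosome 2, 22 on chromosome 3, 8 on chromosome 4 and 13 on chromosome 5, beside 83 distinct nearest genes. Of the 32 called lower in CHH, 26 were runs of 1 tile, 12 had a gene within 500 bp and 5 lay within 1 kb of the start side of the nearest gene. Over all 4333 members, 2208 (51.0%) were runs of 1 tile and 1016 had a gene within 500 bp. The last count has no share over all members beside it. These differences were not tested. Tiles were called in all 3 contexts in 3 cases.

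A run of 4 members downstream of the long non-coding RNA gene AT3G07985, picked out after its values were seen, held a pair of adjacent tiles called lower in CHH that differed in the other contexts. In Chr3:17978201-17978400, 103 bp from the gene, CHH methylation stood at 0.877%, 2.14% and 2.00% in strs2 and at 19.9%, 23.6% and 24.0% in WT. Its 2 CG cytosines read 0.0% in all 6 plants, over 13 to 28 calls a plant, which allow up to 10.7% to 23.1%. In the next tile, Chr3:17978401-17978600, CHH methylation stood at 11.1%, 12.3% and 6.78% in strs2 and at 27.3%, 23.4% and 25.2% in WT, and its 2 CG cytosines at 18.8%, 0.0% and 0.0% in strs2 and at 71.4%, 100.0% and 81.8% in WT.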
